A study of Mus musculus with 10 samples.

Results

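The genes described here are the mouse semaphorins, plexins, neuropilins, ephrins, Eph receptors, Slits and Robo receptors, the families of guidance cues and receptors other than the Netrin system that the study itself manipulated. They were taken by their symbols from the deposited table and came to 60 of its 18901 genes. No measured value entered the symbol rule, though earlier results of these data were known when it was chosen. There were 20 semaphorins, 9 plexins, 2 neuropilins, 5 ephrin-A, 3 ephrin-B, 9 EphA, 5 EphB, 3 Slit and 4 Robo genes. The table holds poly(A) RNA of 10 libraries from 5 lines, each sequenced at 2 passages, all on a cross of mf1 and 129. Oct4-GFP MEF, embryonic fibroblasts with a green fluorescent reporter of the Oct4 locus, were sampled at passages 2 and 4 and grown in DMEM with FCS. The other 4 lines were sampled at passages 5 and 25 and are labelled as grown in KSR+LIF medium. They are pre-iPS cells, control iPS cells obtained without added Netrin-1, and clone 1 and clone 2 of iPS cells obtained with recombinant Netrin-1 ('rNetrin-1-derived'). For the rNetrin-1-derived lines the labels name Oct4-GFP MEF reprogrammed with Oct4, Sox2, Klf4 and c-Myc retroviruses. The study describes pre-iPS as cells stopped part of the way, which had neither reactivated the Oct4 reporter nor silenced the viral genes. Its methods place pre-iPS and iPS cultures on gelatin or on irradiated MEF feeders, without saying which was used for these libraries. They also give 2 media for these cells, KSR with LIF and KSR with 2i and LIF. Each condition other than rNetrin-1 is 1 line, and a line's passages resample the same cells, so p-values compare lines over passages and not independent derivations.

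Semaphorins are ligands whose class 3 members are secreted and signal through neuropilins paired with A-type plexins, whereas most of the others span the membrane and bind plexins directly. Plexins carry a cytoplasmic domain that acts on small GTPases and so alters adhesion and the cytoskeleton. Ephrins are membrane-bound ligands, held by a lipid anchor (ephrin-A) or a transmembrane segment (ephrin-B), and their Eph receptors are tyrosine kinases, so that signalling needs contact between cells. Slits are large secreted proteins that repel Robo-expressing cells and axons. All of these families also act outside the nervous system, in mesenchyme, vessels and epithelia.

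Levels are given in equalized counts, which are read counts that had been brought to a common library size before deposit. Reads on genes ranged from 38110410 to 52946856 per library, and 1 read was worth 0.888 to 1.18 equalized counts. A gene was called at an adjusted p under 0.05 and a log2 fold change of at least 1 in either direction. Fold changes are on the log2(value + 1) scale, which understates the change of low genes. Of the 60 genes, 59 reached a value of 10 in at least 2 libraries and were tested. The exception, Epha6, had 1 to 8 reads per library. The summed level of 8 pluripotency genes was 35430 to 83400 in the iPS libraries, 19250 and 20370 in pre-iPS and 206.3 and 186.1 in MEF. Of these 8, 6 were lower in pre-iPS than in every iPS library, such as Nanog at 311.2 and 349.5 against 2489 to 7441, while Zfp42 and Fgf4 lay inside the iPS range. Summed fibroblast markers were at 4093000 and 3913000 in MEF, 141200 and 152300 in pre-iPS and 84580 to 130600 in iPS. Most of the pre-iPS sum was Fn1, and the other 9 markers came to 22860 and 22070 in pre-iPS and 21140 to 35540 in iPS. Summed macrophage genes were at 12710 and 12700 in MEF and 445.3 to 1669 elsewhere. MEF was highest for 5 of these 6 genes, led by Lyz2, and Cd68 was at 766.6 and 715.1 in MEF, inside the range of the other lines (353.5 to 1565). Replicate spread differed between lines: the biological coefficient of variation was 1.88% between the MEF libraries, which still differed by more than counting noise, and 16.1 to 19.6% within the other lines.

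The sequences just upstream of 4 genes are shown because these genes had the largest differences between MEF and iPS among those with at least 150 bases ahead of both annotated starts. They are RefSeq sequences on GRCm38.p6, 5′ to 3′ on the gene's strand, with each CpG in capitals. Epha3 lies at chr16:63864176-63864425 on the minus strand, Sema3d at chr5:12382916-12383165 on the plus strand, Robo4 at chr9:37401722-37401896 on the plus strand and Epha8 at chr4:136956817-136957066 on the minus strand.
Epha3: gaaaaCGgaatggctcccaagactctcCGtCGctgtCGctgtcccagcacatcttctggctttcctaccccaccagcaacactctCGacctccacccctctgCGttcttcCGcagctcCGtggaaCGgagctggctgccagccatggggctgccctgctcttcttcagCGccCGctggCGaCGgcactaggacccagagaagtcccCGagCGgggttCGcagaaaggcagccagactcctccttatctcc
Sema3d: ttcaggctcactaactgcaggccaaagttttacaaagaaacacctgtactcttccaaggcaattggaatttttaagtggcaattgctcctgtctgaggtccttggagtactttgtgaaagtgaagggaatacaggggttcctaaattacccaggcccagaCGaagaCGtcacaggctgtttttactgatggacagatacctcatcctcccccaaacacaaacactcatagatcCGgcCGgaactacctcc
Robo4: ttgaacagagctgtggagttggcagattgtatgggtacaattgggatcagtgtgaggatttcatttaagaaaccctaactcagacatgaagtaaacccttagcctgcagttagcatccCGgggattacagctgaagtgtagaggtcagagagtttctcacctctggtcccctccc
Epha8: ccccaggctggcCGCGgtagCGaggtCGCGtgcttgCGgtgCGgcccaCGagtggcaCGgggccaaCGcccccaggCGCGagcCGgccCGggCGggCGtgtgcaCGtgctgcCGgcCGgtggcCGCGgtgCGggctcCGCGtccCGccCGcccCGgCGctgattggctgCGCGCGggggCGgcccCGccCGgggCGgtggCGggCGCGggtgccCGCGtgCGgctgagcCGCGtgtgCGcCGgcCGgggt
Epha3 and Sema3d were higher in MEF and held 16 and 4 CpG in these stretches, while Robo4 and Epha8 were higher in iPS and held 1 and 46. An upstream sequence was found in RefSeq for 53 of the 60 genes, and their median was 16 CpG in the 250 bases before the start, with a range of 1 to 46. The median was 14 over 15544 upstream regions of all genes tested. Each member counts with 1 region, the one nearest its annotated start, whereas these background figures keep every region of a gene. In all, 32851 regions cover 27025 genes, so the 2 sets were chosen differently. Among the members higher in MEF, 26 had such a sequence, with a median of 16 CpG, and among those lower in MEF 14 had one, with a median of 11. The letters GGGCGG, on either strand, occurred in 39 of the 53 (73.6%), in 53.2% of the regions of genes tested and in 32.7% of all 32851 regions in the table. The letters TATAAA, on either strand, occurred in 2 of the 53 (3.8%), in 7.5% of the regions of genes tested and in 12.4% of all regions.

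**Figure D1:**
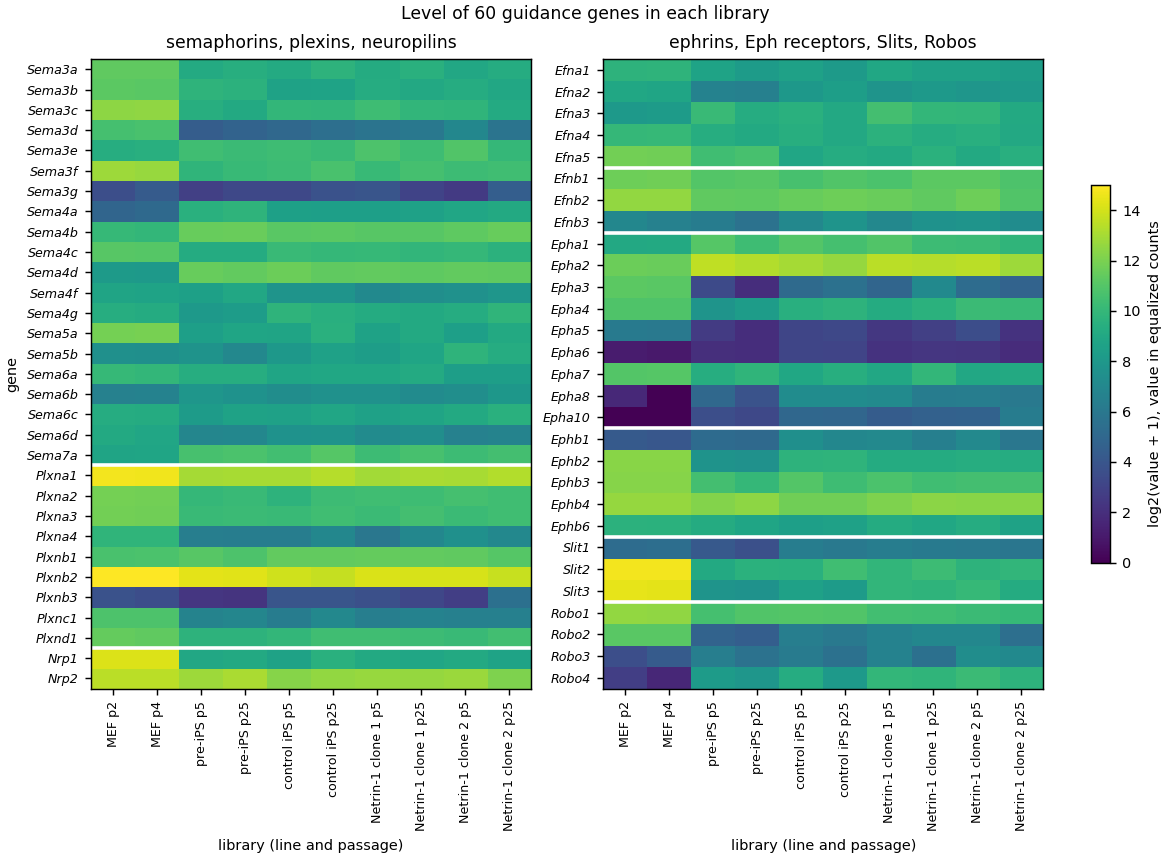
Level of the 60 genes in each of the 10 libraries, as log2(value + 1) of equalized counts, with line and passage on the x axis and genes by family on the y axis. Colours are to be read along a row, since values are not divided by gene length; the MEF columns stand apart in Slit2, Slit3, Nrp1, Sema3d and Epha3 (high) and in Robo4, Epha8 and Epha10 (low).

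Levels of different genes were compared per length, as reads per kilobase of exon scaled to the library's total reads on genes (RPKM). Equalized counts are scaled differently, so a change between lines can differ in size between the measures. The 60 genes summed to 708.3 RPKM in MEF and to 372.0 to 423.8 in the other lines. Slits made up 17.3% of that sum in MEF and 0.628 to 1.7% elsewhere. EphA receptors made up 4.8% in MEF and 17.1 to 20.3% elsewhere. Plexins kept 24.1 to 27.3% of it in every line, led throughout by Plxnb2, a receptor of class 4 semaphorins, at 87.0 RPKM in MEF, 76.5 in pre-iPS and 53.4 to 67.5 in the iPS lines. Ephb4 led the EphB receptors in all lines, at 19.5 to 28.7 RPKM.

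Some families changed their leading member between fibroblasts and reprogrammed cells. Nrp1, the co-receptor best known for Sema3a and VEGF, stood at 94.0 and 94.3 RPKM in the MEF libraries against 19.0 and 19.3 for its paralogue Nrp2, a ratio of 4.88 and 4.96. In the 8 other libraries the ratio lay between 0.181 and 0.338. Nrp2 alone was at 10.5 to 20.7 RPKM there, a range that includes its MEF level on this scale. In equalized counts Nrp2 did not overlap, at 11070 and 11190 in MEF and 4442 to 8830 elsewhere. Among semaphorins the class 3 genes held 68.6 and 68.9% of the family's RPKM in MEF and 24.2 to 31.6% elsewhere, and class 4 held 17.0 and 16.7% against 44.2 to 52.3%. Sema3f led in MEF at 35.0 RPKM. Elsewhere Sema4b and Sema4d led, at 13.4 to 18 and 13.4 to 15.0 RPKM, and their order was not separated by the spread between passages in the control line and in clone 1.

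Among ephrin-A ligands Efna5 led in MEF at 15.5 RPKM. Efna4 led in the control line and clone 2 at 9.25 and 9.34, and Efna3 in clone 1 at 12.9, and the passages of this pair overlapped in each clone but not in the control. In pre-iPS Efna4, Efna3 and Efna5, at 9.01, 8.96 and 8.89, were not separated by the spread between passages. Efnb1 and Efnb2 were the main ephrin-B ligands in all lines, at 13.4 to 18.4 and 12.9 to 22.5 RPKM, and Efnb3 was at 0.478 to 1.41. Epha2, a receptor of broad ephrin-A specificity, led the EphA group in all lines, at 14.3 RPKM in MEF and 44.7 to 68.7 elsewhere. It held 42.8 and 41.4% of EphA RPKM in the MEF libraries and 69.0 to 82.3% in the others, where Epha1 came second.

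**Figure D2:**
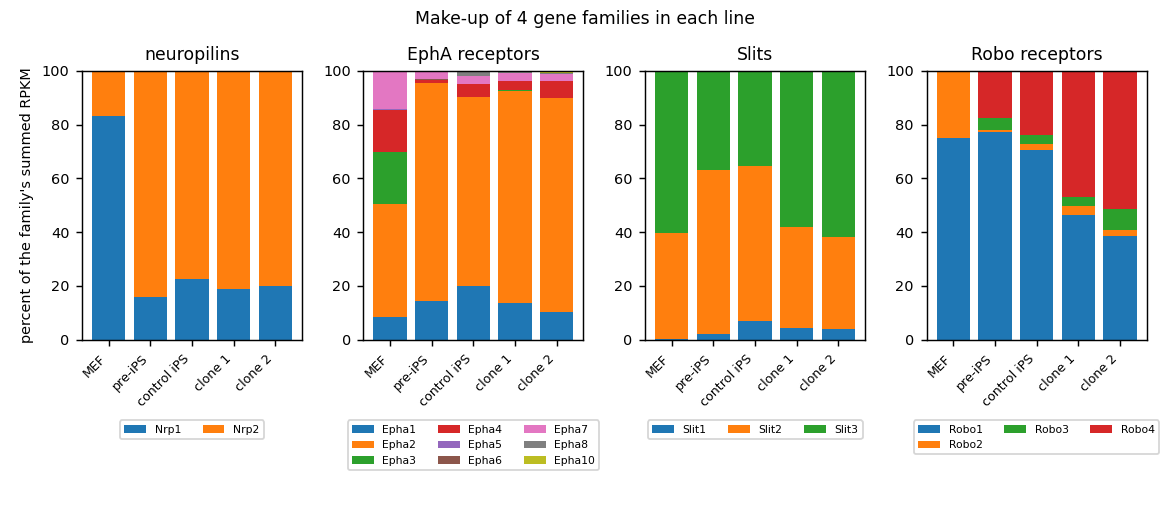
Share of each gene in the summed RPKM of its family, in percent (y axis), for neuropilins, EphA receptors, Slits and Robo receptors in the 5 lines (x axis, mean of 2 libraries each). Nrp1 filled 83.1% of the neuropilin bar in MEF and Nrp2 at least 77.5% elsewhere, and Robo4 is a visible share of the Robo bar in every line but MEF.

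The comparison of MEF with the 3 iPS lines asks which cues and receptors separate the starting fibroblasts from the reprogrammed cells. Of the 59 genes tested, 45 were called (76.3%), against 48.2% of all 17075 genes. Higher in MEF were 31 of 59 (52.5%, against 21.6% of all genes), and 14 were lower (23.7%, against 26.6%). The median log2 fold change was 1.11 over the members and -0.09 over all genes. The Slits, neuropilins and plexins had calls only towards MEF in this fit, whereas the EphA and Robo receptors were split evenly. In bulk RNA, fewer cells of a type and less RNA per cell cannot be told apart.

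The secreted ligands Slit2 and Slit3 were among the largest differences. Slit2 was at 27090 and 27320 in MEF and at 733.0 to 1376 (median 943.7) in the 6 iPS libraries, a log2 fold change of 4.78 ± 0.23 (SE; adjusted p = 2.21e-07). Slit3 was at 22070 and 21010 in MEF and at 302.4 to 1077 (median 726.0) in iPS, a difference of 5.11 ± 0.19 (adjusted p = 6.61e-08). The groups were far apart for both, and the third ligand, Slit1, was low in every library and not called. As shares of the MEF mean, Slit2 kept 2.05 to 5.06% and Slit3 0.932 to 5.00% in the 8 reprogrammed libraries. The 10 fibroblast markers kept between 0.0516% (Lum) and 38.6% (Twist2) in the same libraries. Col1a1, Col1a2, Col3a1, Postn and Lum stayed at or below 1.3%, whereas Fn1, Thy1, Dcn, Pdgfra and Twist2 were above both Slits in every library. The part of fibroblast RNA in these levels was not tested.

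The Robo receptors split into pairs. Robo2 was at 2332 and 2248 in MEF and at 43.0 to 124.2 (median 91.4) in iPS (4.76 ± 0.35, adjusted p = 2.36e-06), and Robo1, the most abundant per length in MEF, was higher there by 2.04 ± 0.10 (adjusted p = 2.67e-07). Robo4, known from endothelial cells, went the other way, with 5 and 2 reads in the MEF libraries and 280.5 to 1191 equalized counts (median 862.1) in iPS. Its fitted difference was -7.31 ± 0.36 (adjusted p = 2.7e-07), and the plain ratio of means was 204-fold, with a 95% counting interval of 98.9 to 507. Robo3, which acts in commissural neurons, was at 11.0 and 18.9 in MEF and 46.2 to 165.6 (median 85.6) in iPS (-2.47 ± 0.37, adjusted p = 0.000267). Robo3 and Robo4 are neighbours on chromosome 9 that end 0.6 kb apart on opposite strands. Libraries of this kit do not mark strand, so reads running past either end cannot be assigned. Summed endothelial markers, 7 genes, were at 257.1 and 260.7 in MEF and 2274 to 4438 in iPS, led by Pecam1, Tek and Vwf. Kdr went the other way, at 118.4 and 145.3 in MEF and 29.29 to 81.22 in iPS. So did Emcn, at 6.99 and 4.26 in MEF and 0 to 1.78 in iPS, with 0 in 4 of the 6 iPS libraries. The part of these 7 markers in the Robo4 difference was not tested.

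Receptors of the semaphorins were mostly higher in MEF. Nrp1 was at 19020 and 18900 in MEF and 396.5 to 719.6 (median 513.2) in iPS, a log2 fold change of 5.22 ± 0.21 (adjusted p = 9.64e-08), while Nrp2 (0.94 ± 0.16) missed the fold threshold. Of 9 plexins, 7 were called and each was higher in MEF (5 under quantile normalization). Plxnc1, the receptor of Sema7a, rose most, from 77.4 to 126.2 (median 90.8) in iPS to 1809 and 1820 in MEF (4.26 ± 0.20, adjusted p = 1.85e-07), followed by Plxna4 (3.02 ± 0.28). Plxnb1, a receptor of Sema4d, stayed below the threshold at -0.63 ± 0.10.

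The ligands of the same system went both ways, with 10 of 20 semaphorins higher in MEF and 6 lower (10 and 3 under scaling to 4 housekeeping genes). Sema3d was at 1553 and 1622 in MEF and 31.9 to 122.0 (median 54.0) in iPS (4.80 ± 0.30, adjusted p = 9.61e-07). Sema5a, Sema3c, Sema3f, Sema3b and Sema3a followed, with log2 fold changes of 2.95, 2.63, 2.35, 2.19 and 2.02. On the other side stood 3 membrane-bound class 4 members, Sema4a, Sema4d and Sema4b (-1.25 ± 0.08), and the secreted Sema3e (-1.01 ± 0.23). Class 4 was split, since Sema4c (1.14 ± 0.11) and Sema4f (1.12 ± 0.16) were called higher in MEF. Sema4a was at 28.6 and 33.7 in MEF against 358.7 to 546.6 (median 371.7) in iPS (-3.67 ± 0.14, adjusted p = 6.23e-08). Sema4d, also known as CD100 from lymphocytes, was at 285.5 and 260.0 against 2447 to 3208 (median 2659), or -3.31 ± 0.10 (adjusted p = 1.89e-08). The lipid-anchored Sema7a was lower in MEF as well (-1.74 ± 0.16), so Plxnc1 and its ligand moved in opposite directions, and so did Sema5a and Sema5b (-1.30 ± 0.25). The Sema5b call was lost under the housekeeping scaling (-0.91), and so were those of Sema4b and Sema3e.

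Among Eph receptors Epha3 showed the largest rise in MEF, with 2375 and 2288 against 25.98 to 139.6 (median 36.3) in iPS (5.72 ± 0.57, adjusted p = 1.74e-05). Ephb2 was at 5217 and 5197 against 597.4 to 852.1 (median 627.1), a difference of 2.93 ± 0.08 (adjusted p = 1.29e-08). Epha5, at 70.9 and 66.6 in MEF, was near the floor in iPS with 3.58 to 10.9, and was higher in MEF by 3.22 ± 0.40. It passed the filter only through its MEF libraries, so a call could go only this way. Lower in MEF were Epha8, Epha10, Ephb1, Epha2 and Epha1. Epha8 had 2 and 0 reads in the MEF libraries and 66.3 to 158.6 equalized counts (median 112.6) in iPS, a ratio of 102 with a counting interval of 28.3 to 844 (adjusted p = 5.74e-06). Epha10, a member without kinase activity, had no read in either MEF library and 19.5 to 78.0 (median 28.02) in iPS. Set against a floor of 3 reads in each library it was at least 10.4-fold lower in MEF (adjusted p = 4.46e-06). Epha8, Epha10 and Robo4 passed the filter only through the reprogrammed lines, so their direction was likewise set in advance. Ephb1 fell from 61.8 to 173.1 (median 127.3) in iPS to 17.7 and 15.9 in MEF (-2.67 ± 0.31).

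Epha2, the dominant receptor, was at 3216 and 3058 in MEF and 6356 to 11160 (median 9096) in iPS (-1.49 ± 0.16, adjusted p = 3.26e-05), and Epha1 had a similar difference of -1.38 ± 0.24, which missed the fold threshold (-0.99) under scaling to housekeeping genes. Of the ligands, Efna5 was higher in MEF by 2.53 ± 0.16 and Efna3 lower by a log2 difference of -1.52 ± 0.29 (269.0 and 302.5 against 535.0 to 1490). Efna1, Efna3 and Efna4 sit side by side on chromosome 3 with gaps of 32.8 and 10.4 kb and no other protein-coding gene between them, and they did not move together: Efna1 was higher in MEF by 1.21 ± 0.18 and Efna4 by 0.71 ± 0.15, below the fold threshold. Housekeeping scaling shifted the median of all genes from -0.09 to 0.30 in this comparison.

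**Figure D3:**
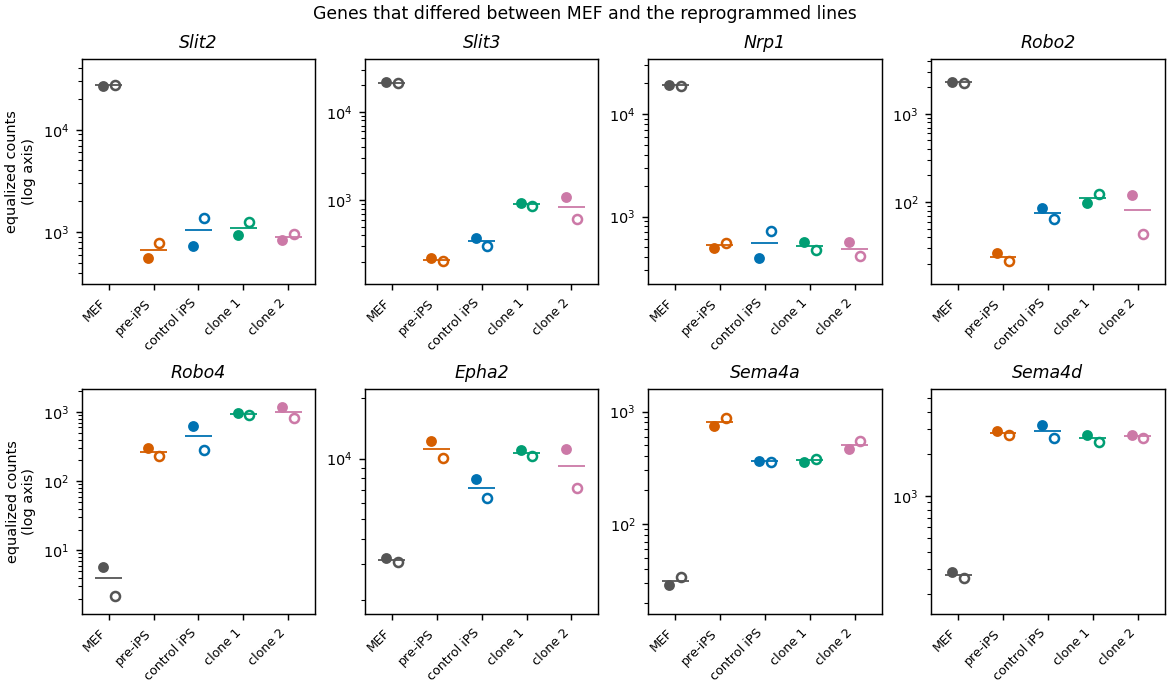
Equalized counts (y axes, log scale) of 8 genes by line (x axes); filled circles are the earlier passage, open circles the later one and bars the mean of both. MEF lies above every other library for Slit2, Slit3, Nrp1 and Robo2 and below every other library for Robo4, Epha2, Sema4a and Sema4d.

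Other genes of these pathways, some of them surface molecules or adaptors of the ligands, were counted from lists of signalling partners. Of 21 semaphorin and plexin partners, 10 were higher in MEF and 2 lower. Among 17 ephrin and Eph partners the count was 2 higher and 6 lower, and among 13 Slit and Robo partners 5 higher and 0 lower, where 21.6% of all genes were higher and 26.6% lower. Chl1, an adhesion molecule that associates with neuropilin, averaged 1986 in MEF and 91.6 to 194.2 in the iPS lines (3.93 ± 0.23, adjusted p = 6.74e-07). Dpysl5, of the collapsin response mediator family, averaged 73.2 in MEF and 1170 to 1843 in iPS (-4.24 ± 0.25). Grip2, a PDZ adaptor able to bind ephrin-B ligands, averaged 2.75 in MEF and 160.5 to 245.7 in iPS (-5.84 ± 0.35).

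Pre-iPS cells were next set against the iPS lines, which are labelled with the same medium but differ in how far reprogramming went. In this contrast 17 of 59 genes were called (28.8%), against 16.3% of all genes. In pre-iPS 2 were higher (3.39%, against 4.71%) and 15 were lower (25.4%, against 11.6%). The lower group held 4 EphA and 2 EphB receptors, 3 semaphorins, 2 Slits, 2 Robo receptors and 2 ephrins, and no plexin or neuropilin was called in either direction. The median was -0.31 over the members and 0.00 over all genes.

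Ephb2 had the lowest p, with 206.1 and 190.1 in pre-iPS against 597.4 to 852.1 (median 627.1) in iPS (-1.78 ± 0.08, adjusted p = 3.06e-06). Epha4, a receptor that binds both ephrin classes, was at 220.4 and 313.0 against 603.8 to 1196 (median 787.6), or -1.68 ± 0.15 (adjusted p = 6.97e-05). Neither gene overlapped between the groups. The largest fold belonged to Epha3, with 9 and 3 reads in pre-iPS and 25.98 to 139.6 equalized counts in iPS, a ratio of 8.79 with a counting interval of 5.03 to 17.0 (adjusted p = 0.00515). The 139.6 was 1 library, clone 1 at passage 25, and leaving it out, a choice made after seeing the data, gave a ratio of 5.85 (3.35 to 11.3; adjusted p = 0.00262). Epha8 (-2.30 ± 0.49), Ephb1 (-1.65 ± 0.31) and Epha10 (-1.57 ± 0.40) were lower too, at 32.6 and 13.4, 36.7 and 33.6, and 11.2 and 8.64 equalized counts.

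Slit1 stood at 17.3 and 11.5 in pre-iPS and 58.2 to 82.2 (median 69.2) in iPS (-2.24 ± 0.23, adjusted p = 0.000174). Slit3 was at 218.3 and 200.7 in pre-iPS against 302.4 to 1077 in iPS (-1.57 ± 0.19, adjusted p = 0.000437). Robo2 was at 26.5 and 21.1 against 43.0 to 124.2 (-1.78 ± 0.35). These ligands and this receptor were below all 8 other libraries in pre-iPS. Robo4 was also called (-1.46 ± 0.36), but its 304.0 and 231.4 overlapped the control iPS library at 280.5.

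The other called genes were ligands. Efna2 was at 99.0 and 91.2 in pre-iPS against 219.3 to 343.1 in iPS (-1.47 ± 0.16), and Efnb3 at 77.5 and 49.0 against 125.2 to 214.2 (-1.43 ± 0.30). Sema5b (-1.43 ± 0.25), Sema4g (-1.27 ± 0.16) and Sema3d (-1.22 ± 0.30) were lower as well. Efna5 and Sema4f were the 2 called higher. Efna5, an ephrin-A ligand, was at 1369 and 1601 against 472.9 to 759.6 (median 590.6) in iPS (1.29 ± 0.16, adjusted p = 0.000474). Sema4f was at 374.4 and 502.2 against 139.4 to 233.9 (median 204.7), or 1.17 ± 0.16 (adjusted p = 0.000783). Sema4a, with 742.7 and 878.6 against 358.7 to 546.6, came just short of the fold threshold (0.99 ± 0.14). The calls of Epha3, Epha8, Epha10, Efnb3, Robo4 and Sema4f were lost without the passage 25 pre-iPS library, in a fit on a single pre-iPS library. Log2 fold changes were then -2.12 for Epha3, -1.69 for Epha8, -1.40 for Epha10, -1.11 for Efnb3 and 0.955 for Sema4f.

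**Figure D4:**
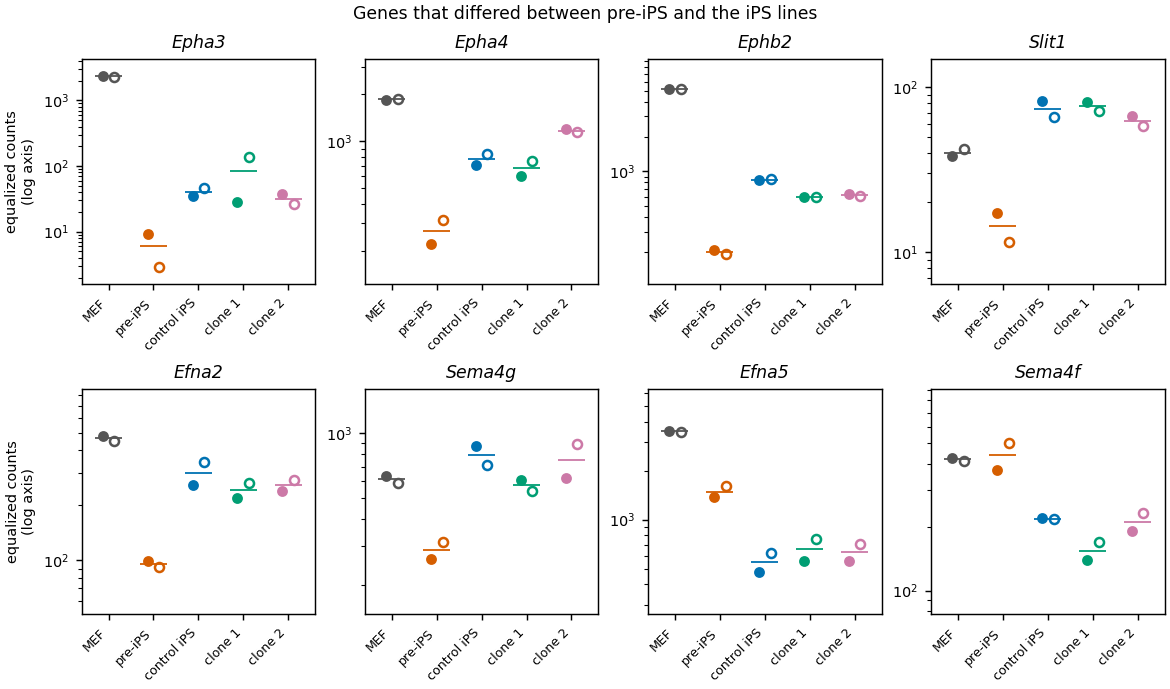
Equalized counts (y axes, log scale) of 8 genes called between pre-iPS and the iPS lines, drawn by line (x axes); filled circles are the earlier passage, open circles the later one and bars the mean of both. For Epha3, Epha4, Ephb2, Slit1, Efna2 and Sema4g the pre-iPS libraries lie below all 8 others, while for Efna5 they lie between iPS and MEF.

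Position relative to both other states was then counted. For 13 of 59 genes (22.0%) both pre-iPS libraries were below all 8 others, MEF included, against 9.6% of all genes. For 2 genes (3.39%), Sema4a and Sema4b, they were above all others, against 11.1% of all genes. The 13 were Efna2, Efnb3, Epha3, Epha4, Ephb2, Plxnb3, Plxnd1, Robo2, Sema3d, Sema4c, Sema4g, Slit1 and Slit3.

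Set directly against MEF, pre-iPS differed at 44 of 59 genes (74.6%), against 43.2% of all genes, a comparison that shares its pre-iPS and MEF libraries with those above. Lower in pre-iPS were 31 (52.5%, against 20.9% of all genes), and 13 were higher (22.0%, against 22.4%). The median was -1.24 over the members and 0.06 over all genes, which housekeeping scaling moved to -0.34. Epha3 was lower by a ratio of 393 (counting interval 225 to 760), Slit3 by -6.68 ± 0.24 and Robo2 by -6.54 ± 0.42 on the log2 scale. Sema3d (-6.02 ± 0.37), Slit2 (-5.37 ± 0.28), Nrp1 (-5.17 ± 0.26) and Ephb2 (-4.71 ± 0.10) came next. Robo4 (5.85 ± 0.45), Sema4a (4.66 ± 0.17) and Sema4d (3.37 ± 0.12) were higher in pre-iPS than in MEF. Sema4d, at 2904 and 2745, lay inside the iPS range of 2447 to 3208, and Sema7a, at 1577 and 1742, inside 1235 to 2092.

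Among the signalling partners, the calls between pre-iPS and iPS were 1 higher and 1 lower of 21 semaphorin and plexin partners. They were 1 and 2 of 17 for ephrins and 1 and 0 of 13 for Slits, where 4.71% of all genes were higher and 11.6% lower. Farp2, an exchange factor that acts on plexin-A signalling, averaged 1074 in pre-iPS and 1129 in MEF against 123.6 to 175.1 in the iPS lines (2.88 ± 0.19, adjusted p = 1.75e-05). Dpysl4 averaged 9.90 in pre-iPS against 100.4 to 158.2 in iPS and 445.3 in MEF (-3.54 ± 0.26, adjusted p = 2.98e-05 against iPS). Grip2 averaged 32.3 in pre-iPS (-2.60 ± 0.35). Against MEF the counts were 2 higher and 8 lower, 6 and 3, and 0 and 3, where 22.4% of all genes were higher and 20.9% lower. Arhgef15, an exchange factor bound by Eph receptors, was at 1262 against 47.6 (4.71 ± 0.18).

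**Figure D5:**
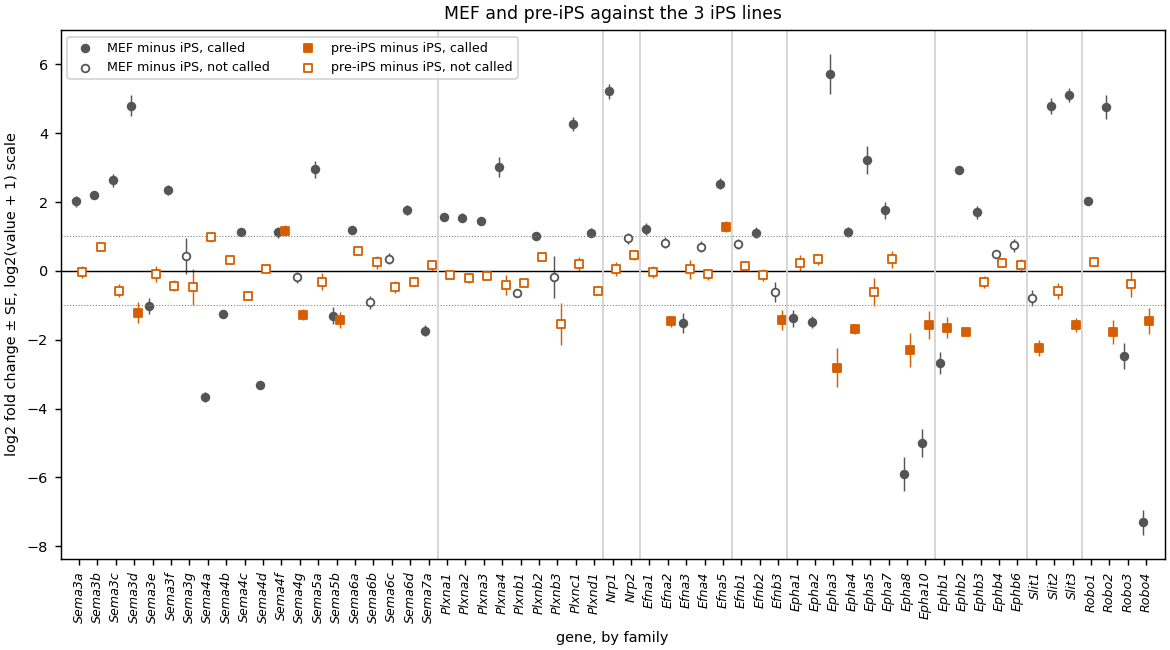
Log2 fold change ± SE (y axis) of MEF (circles) and pre-iPS (squares) against the 3 iPS lines for the 59 genes tested (x axis, by family). Filled symbols are called genes and dotted lines the fold threshold; both contrasts share the iPS libraries. Circles spread from -7.31 (Robo4) to 5.72 (Epha3), and the filled squares lie below 0 except those of Efna5 and Sema4f.

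Whether iPS lines obtained with rNetrin-1 differ from the control line was asked by the mean of the clones against control. Of the 59 genes 1 was called, Slit3 (1.69%), against 2.11% of all genes. Slit3 was at 933.2 and 848.9 in clone 1, 1077 and 603.1 in clone 2 and 375.2 and 302.4 in the control, a log2 fold change of 1.33 ± 0.21 (adjusted p = 0.0125; 0.0052 with the passage as a block). All 4 clone libraries were above both control libraries, and clone means were 2.63 and 2.48 times the control mean. The call was lost in a fit of the compared lines alone (adjusted p = 0.0747) and without either control library (0.0535 and 0.11). Summed fibroblast markers were also higher in the clones, at 111600 to 130600 against 84580 and 91870. That gap lay in Fn1, and the other 9 markers, summed apart after the data were seen, overlapped at 24980 to 35540 against 21140 and 29870. Their part in the Slit3 difference was not tested.

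By the adjusted p alone, 5 of 59 differed (8.47%, against 4.08% of all genes). Beside Slit3 these were Robo1 (-0.68 ± 0.11), Ephb2 (-0.46 ± 0.08), Sema6d (-0.67 ± 0.15) and Ephb4 (0.54 ± 0.10). Robo1 was at 1379 and 1359 in clone 1, 1180 and 1049 in clone 2 and 2005 and 1944 in the control, with no overlap. Ephb2, which had the lowest p between pre-iPS and iPS, was at 597.4 to 637.7 in the clones and 837.4 and 852.1 in the control. Robo4 was at 827.1 to 1191 in the clones and 629.5 and 280.5 in the control, a difference of 1.19 ± 0.39 that was not called (adjusted p = 0.147). With the passage as a block the estimate was 1.19 ± 0.20 and was called (adjusted p = 0.0136), and DESeq2 on whole reads called it too (1.09, adjusted p = 0.0125), whereas edgeR on the same reads did not (adjusted p = 0.114). Per length, Robo4 stood at 0.977 to 1.49 times Robo1 in the clones and 0.214 and 0.465 times in the control. Endothelial marker sums overlapped, at 2274 to 4438 in the clones and 3087 and 2463 in the control.

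No semaphorin partner and no Slit partner was called in this contrast, and of 17 ephrin partners 1 was higher and 1 lower, where 0.99% of all genes were higher and 1.12% lower. Chn2, of the chimaerins that inactivate Rac in guidance signalling, was at 103.1 to 149.6 in the clones and 538.6 and 567.3 in the control (-2.18 ± 0.21, adjusted p = 0.00206). Arhgef15 was at 617.4 to 1008 in the clones and 324.9 and 243.0 in the control (1.51 ± 0.16, adjusted p = 0.00282). Neither overlapped between the groups.

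Between clones 1 and 2 limma called 0 of 59 genes, against 0.966% of all genes, and edgeR and DESeq2 on whole reads also called 0. At an unadjusted p under 0.05 there were 12 of the 59, against 16.6% of all genes. Sema6a, the lowest, was at 485.7 and 576.9 in clone 1 and 341.2 and 339.6 in clone 2 (-0.64 ± 0.12, adjusted p = 0.0492), below the fold threshold. The control line, at 454.5 and 483.9, lay below both clone 1 libraries and above both clone 2 libraries. Such opposite sides were found for 3 of 59 members (5.08%) and 4.01% of all genes. Without the passage 5 library of clone 2, Plxnb3, a low plexin, was called (2.12, adjusted p = 0.0413), resting on its passage 25 value of 45.7.

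Continued culture was followed in the pre-iPS and iPS lines from passage 5 to passage 25. Limma called 0 of 59 genes, against 1.69% of all, and edgeR and DESeq2 called 0. An unadjusted p under 0.05 was found for 28 of the 59, a larger share than the 29.1% of all genes. By the adjusted p alone there were 11 (18.6%, against 10.9% of all genes), with sizes of at most 0.67 on the log2 scale. Lower at passage 25 were Efna3, Epha1, Epha2 and Efna4, and higher were Sema5a, Slit2, Efna5, Sema3a, Sema3f, Sema7a and Plxna1. Efna3 went from 1131 to 630.8 in pre-iPS, 733.9 to 535 in control, 1490 to 989.5 in clone 1 and 954.1 to 553.8 in clone 2 (-0.67 ± 0.09 over the 4 lines, adjusted p = 0.00643). Epha1 went from 2129 to 1286 in pre-iPS, 2011 to 1536 in control, 1952 to 1226 in clone 1 and 1177 to 887.1 in clone 2 (-0.55 ± 0.08, adjusted p = 0.00886). Sema5a rose in each of the 4 lines, from 345.8 to 444.6 in pre-iPS, 425.5 to 748.8 in control, 397.8 to 550.2 in clone 1 and 358.0 to 545.7 in clone 2 (0.56 ± 0.10, adjusted p = 0.0196).

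The passage difference of pre-iPS was compared with that of the iPS lines. It was called different at 0 of 59 genes, as at 0% of all genes, and edgeR also called 0. At an unadjusted p under 0.05 there was 1 gene, Robo1 (0.46 ± 0.15), against 3.33% of all genes. This test rests on 1 pre-iPS pair.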

How the data were processed

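The authors deposited 1 table of 18901 genes by 10 libraries whose values are a signal, edgeR pseudo-counts brought to a common library size. The submitters' notes name FastQC, CASAVA 1.8.2, TopHat2 2.0.8b, HTSeq 0.5.3p9, edgeR and mm10; the annotation and strand setting are not given in the sources used here. Each value could be turned back into whole reads (100% in each library). Counting error alone is covered by the intervals.

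The 17075 genes that reached 10 in 2 or more libraries were tested with limma 3.58.1 (R 4.3.3, eBayes with trend) on log2(value + 1), with 1 mean per line over all 10 libraries and Benjamini-Hochberg adjustment over all genes. The passage fits used 8 libraries with the line as a block. Passage numbers pair the libraries across lines (correlations of deviations 0.235 to 0.504 over 6 pairs of lines). iPS is the mean of 3 lines, each weighted equally.

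RPKM used recovered reads and merged protein-coding exons of GENCODE M21 basic (GRCm38, the build named mm10), which matched all 60 symbols. For MEF and pre-iPS contrasts, up to 12 called members in each direction without overlap were named, and for the others all called members or the lowest p, besides the leading member of each family. Robo4, Sema4a, the genes by adjusted p alone and those used in the shares of classes were named after their values were seen. Of the signalling partners, up to 3 called genes per comparison were named. The members and lists were chosen with earlier results of these data known. edgeR 4.0.16 on recovered reads called 8194 genes for MEF, 2712 for pre-iPS and 387 for rNetrin-1-derived lines against 8237, 2781 and 360 with limma. DESeq2 1.42.0, other pseudocounts, filters and scalings, and leaving out each library were tried. The same tests were also run on simulated counts, whose outcome is not given here.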

Additional observations from a re-analysis of the deposited data

Results flagged for a closer look

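The 59 members tested were examined within the 6 iPS libraries, and again within the 4 rNetrin-1-derived libraries among them. A value was marked when its gap to the nearest other library was large against the range of the group (Dixon's criterion). Chance marks about 1 of 20 groups, so with 59 genes several marks are to be expected by chance. Such a library was found for 6 of the 59 members, and the share over all genes was not computed. Epha10 reached 77.95 in clone 2 at passage 25, against 19.52 to 30.94 in the other iPS libraries. Plxnb3 reached 45.69 in the same library, against 5.95 to 14.6, and Plxnb1 was lowest there at 2118, against 2615 to 2818. In clone 1 at passage 25, Epha3 stood at 139.6 against 25.98 to 46.93, and Epha7, a receptor of ephrin-A ligands, at 989.5 against 490.3 to 676.8. Sema3d was at 122 in clone 2 at passage 5, against 31.91 to 62.62.

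For 3 of 59 members (5.08%) the libraries of the clones lay on opposite sides of both control libraries, as they did for 4.01% of all genes tested. Clone 2 minus clone 1 was -0.635 for Sema6a (adjusted p = 0.0492), 0.296 for Sema4b (adjusted p = 0.169) and -0.232 for Plxnb1 (adjusted p = 0.402) on the log2 scale.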

How the results depend on the processing

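The counts of called members for MEF minus iPS (41 to 46) and pre-iPS minus MEF (42 to 48) stayed within 1.5 times of 45 and 44 under every alternative tried. Housekeeping scaling gave 36 higher and 10 lower, and 11 higher and 37 lower. It also moved the median of all genes, from -0.087 to 0.3 for MEF minus iPS and from 0.058 to -0.336 for pre-iPS minus MEF. These counts by direction were not set against those of all genes under that scaling, so they show no change particular to the members. For pre-iPS minus iPS leaving out each library in turn gave 11 to 19 members. For the rNetrin-1-derived lines against the control, the count of 1 became 0 in a fit of the compared lines only and 2 with DESeq2, and it ranged from 0 to 2 with each library left out: 0 without either control library and 2, with Sema3d (1.16, adjusted p = 0.0367), without clone 2 at passage 25. With the passage as a replicate block it was 2, Robo4 besides Slit3, and the block changed no other count. Clone 2 minus clone 1 ranged from 0 to 1 with each library left out, the 1 being Plxnb3.

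No difference of the genes chosen by the naming rule above changed direction. Of those genes, calls were lost for Epha1 and Sema5b (MEF minus iPS) and Sema6b (pre-iPS minus MEF, 1.17) under housekeeping scaling, where Sema6b was at 0.76. Sema6b and Epha10 (pre-iPS minus iPS) also lost theirs under quantile normalization, at 0.85 and -0.96, and Epha10 without either pre-iPS library. Members outside that rule lost calls too. Sema4b and Sema3e (MEF minus iPS) lost theirs under housekeeping scaling, where semaphorins lower in MEF went from 6 to 3. Under quantile normalization plexins higher in MEF went from 7 to 5, and semaphorins lower in pre-iPS than in iPS from 3 to 2. Genes with few reads, such as Epha5, Epha10 and Plxnb3, are limited by counting error; for the others the spread between passages and the single line per state set the limit.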
